A study of Homo sapiens with 6 samples.

Results

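FAP and 9 genes of related serine peptidase families, not all of them with peptidase activity, were followed in a human hepatic stellate cell line made to overexpress FAP. The 10 genes were taken by symbol from a table of 60748 genes: FAP, DPP4, DPP6, DPP7, DPP8, DPP9, DPP10, PREP, PRCP and PREPL. LX-2 is an immortalized human hepatic stellate cell line. The LX-2FAP cells carried a lentiviral FAP overexpression plasmid, and the LX-2Vector cells the matching vector without FAP, with a ubiquitin promoter, EGFP and puromycin resistance. All cells of both groups were cultured for 24 h after puromycin selection of stable clones, with 3 RNA-seq libraries per group, numbered here as in the labels. The number of clones, and whether the 3 libraries of a group were separate cultures, are not given in the sources used here, so p-values measure the spread between libraries, which may be technical.

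Prolyl peptidases cut peptide chains next to proline, a residue that blocks most other proteases. FAP and DPP4 sit on the cell surface and are close relatives; DPP4 removes dipeptides from chemokines and incretin hormones, and FAP is also an endopeptidase that acts on gelatin and other proteins. DPP8 and DPP9 are the cytosolic dipeptidyl peptidases of the same family and restrain the NLRP1 and CARD8 inflammasomes. DPP6 and DPP10, by contrast, have lost catalytic activity and serve as accessory subunits of Kv4 potassium channels. PREP is a cytosolic prolyl oligopeptidase, PREPL its relative, and DPP7 and PRCP are peptidases of the lysosome and other vesicles. In liver, FAP is known as a marker of activated stellate cells and of fibroblasts around tumors.

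The stretch of coding sequence around the catalytic serine shows which members of the FAP and DPP4 family have a serine codon at that position. Other residues of the active site were not compared. The stretch is given for the 6 members of this family, FAP included, and no alignment of DPP7, PREP, PRCP or PREPL was made. Each stretch has 39 bases, 5′ to 3′ on the coding strand of the principal GENCODE 29 transcript. The codon aligned to the catalytic serine codon of FAP is in capitals.
FAP: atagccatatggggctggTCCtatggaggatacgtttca
DPP4: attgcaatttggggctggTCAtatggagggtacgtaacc
DPP8: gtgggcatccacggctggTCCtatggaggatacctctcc
DPP9: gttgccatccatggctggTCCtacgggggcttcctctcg
DPP6: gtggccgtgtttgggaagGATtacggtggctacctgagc
DPP10: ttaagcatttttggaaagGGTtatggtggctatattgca
The codons TCC and TCA of FAP, DPP4, DPP8 and DPP9 encode serine, whereas GAT of DPP6 encodes aspartate and GGT of DPP10 encodes glycine. The codon of FAP is codon 624, in exon 22 of 26, at chr2:162174964-162174966 on the minus strand (GRCh38). The aligned codons of DPP4 at chr2:162008659-162008661, minus strand, DPP6 at chr7:154885633-154885635, plus strand, and DPP10 at chr2:115836157-115836159, plus strand, also lie in exon 22 of 26. Those of DPP8 and DPP9 lie in exon 17 of 20 at chr15:65454317-65454319 and in exon 19 of 22 at chr19:4683531-4683533, both on the minus strand. Over the aligned codons, coding bases identical to FAP came to 60.3% for DPP4, 48.2% for DPP10, 46.4% for DPP6, 42.8% for DPP8 and 39.8% for DPP9. Of the genes aligned, the one closest to FAP in sequence also lies near it on the same chromosome. FAP spans chr2:162170684-162245151 and DPP4 chr2:161992241-162074542, both on the minus strand, with 96.1 kb and the gene GCG between them.

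The libraries held 17355700 to 26352060 counts on genes. On the first principal component of log2 CPM (36.2% of the variance) the LX-2Vector libraries lay at -20.7 to -11.6 and LX-2FAP libraries 1 to 3 at 1.91, 25.4 and 17.01, so LX-2FAP library 2 was the farthest from LX-2Vector and library 1 the nearest. LX-2 identity was checked against 15 stellate markers, whose summed level was 394.1 to 415.7 FPKM (fragments per kilobase of gene, scaled to library depth) in LX-2Vector and 397.0 to 421.2 FPKM in LX-2FAP. VIM, COL1A1 and SPARC were present, while PDGFRA, LRAT, DES and GFAP stayed under 0.1 FPKM in every library, and LRAT, which serves retinoid storage, was at 0 throughout. Among the 15, VIM was higher in LX-2FAP and COL1A1, COL3A1 and PDGFRB were lower; of 14 alternatives with a filter on low counts, 6 called VIM (adjusted p up to 0.249) and 8 called PDGFRB (up to 0.154). Markers of other cells were low: 5 hepatocyte genes summed to 2.64 to 3.04 FPKM in LX-2Vector and 2.14 to 2.36 FPKM in LX-2FAP, with ALB, APOA1, TTR and HNF4A under 0.1 FPKM in every library. The 5 endothelial genes summed to 1.30 to 1.45 FPKM and 0.974 to 1.198 FPKM with VWF called lower in LX-2FAP (in 7 of 13 alternatives, adjusted p up to 0.151) and CDH5 and STAB2 under 0.1 FPKM throughout, the 4 epithelial genes to 1.24 to 2.09 FPKM and 1.05 to 1.54 FPKM, and the 4 immune genes to 4.52 to 5.83 FPKM and 5.23 to 6.99 FPKM. Their part in the results was not tested.

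FAP, the gene introduced, checked the labels in every library. LX-2Vector libraries 1 to 3 held 49, 42 and 55 FAP counts, and LX-2FAP libraries 1 to 3 held 14864, 15160 and 14805. The groups were far apart, with no library between them. In CPM (counts scaled to library size with TMM factors), FAP was at 1.85, 2.39 and 2.59 in LX-2Vector and at 620.1, 842.8 and 706.7 in LX-2FAP, a 321.6-fold difference (95% interval 264.7 to 390.9; log2 fold change 8.33, SE 0.13, edgeR adjusted p = 4.47e-16). This was the largest change of the 18275 genes tested, the next being 2.11 on the log2 scale. The largest share of a library's counts taken by FAP was 0.0831% (Wilson 95% interval 0.0818 to 0.0845) in LX-2FAP library 2, and the smallest in this group was 0.0614% (0.0605 to 0.0624) in library 1. In LX-2Vector the share ran from 0.000186% to 0.000261%, and these intervals cover counting error only. Ranked by FPKM among all genes, FAP was 196th to 295th in LX-2FAP and 19344th to 21098th in LX-2Vector. Counts do not tell the introduced FAP from the cells' own gene. Of the exon bases of FAP, 9.11% are shared with the opposite-strand gene AC007750.1, and the strand setting of the counting is not given in the sources used here.

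**Figure D1:**
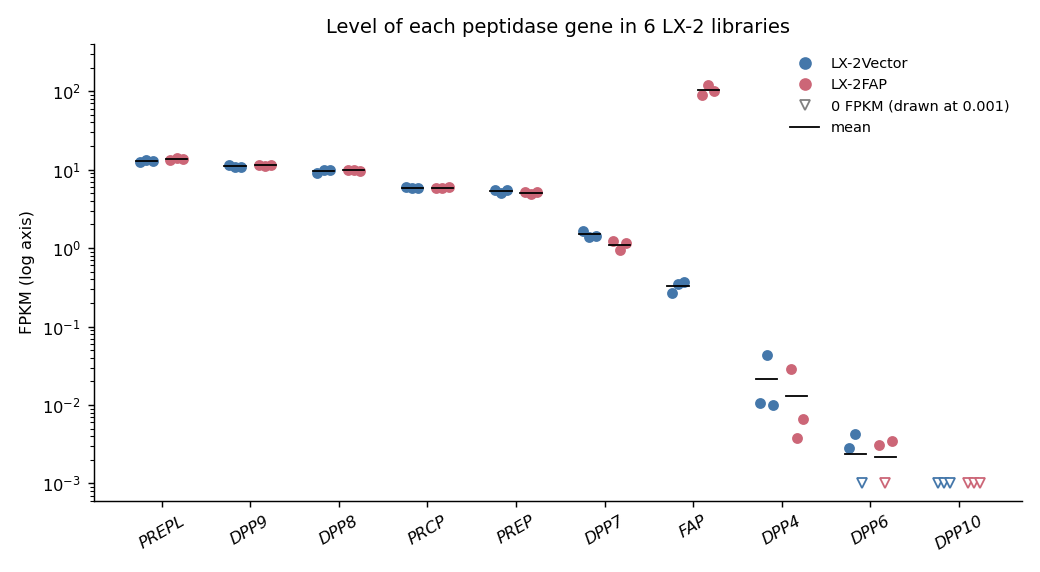
FPKM on a log axis for the 10 genes, in the order of their mean level in LX-2Vector, with a point per library, blue for LX-2Vector and red for LX-2FAP, a bar at each mean and open triangles for 0. FAP moves from 0.267 to 0.375 FPKM to between 88.2 and 119.3 FPKM. The points of PREPL, DPP9, DPP8, PRCP and PREP lie at similar heights in both groups. Those of DPP7 are lower in LX-2FAP (0.932 to 1.22 FPKM) than in LX-2Vector (1.39 to 1.65 FPKM). Those of DPP4, near the floor, spread from 0.0038 to 0.0439 FPKM over both groups.

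The rest of the family was expressed in 3 tiers. In LX-2Vector, PREPL, DPP9, DPP8, PRCP and PREP lay between 5.06 and 13.2 FPKM, DPP7 and FAP at 0.267 to 1.65 FPKM, and DPP4, DPP6 and DPP10 at 0.0439 FPKM or below. By mean and SD (n = 3), PREPL stood at 12.8 ± 0.34 FPKM, DPP9 at 11.1 ± 0.48, DPP8 at 9.51 ± 0.48, PRCP at 5.85 ± 0.057 and PREP at 5.32 ± 0.23. DPP7 followed with 1.49 ± 0.14 FPKM, FAP with 0.330 ± 0.056 and DPP4 with 0.0214 ± 0.0195. The ranges of neighbors in this order did not overlap between libraries down to DPP4. FAP was 7th of the 10 in LX-2Vector and 1st in LX-2FAP, where its mean was 102.5 ± 15.7 FPKM.

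By FPKM, which rests on the deposited gene lengths, PREPL was the highest of the other members in every library. It exceeded FAP 47.0-, 38.1- and 34.1-fold by FPKM in LX-2Vector libraries 1 to 3. In LX-2FAP libraries 1 to 3, FAP exceeded PREPL 6.58-, 8.53- and 7.29-fold by FPKM. The order of FAP and PREPL was thus turned over in all 3 libraries. Per kilobase of principal transcript, a scale described below, mean CPM in LX-2FAP was 260.2 for FAP, 45.4 for PRCP and 21.7 for PREPL. The folds and the highest other member thus depend on the gene length used. FAP made up 0.710% ± 0.121 (SD, n = 3) of the FPKM summed over the 10 genes in LX-2Vector and 68.3% ± 3.39 (n = 3) in LX-2FAP.

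**Figure D2:**
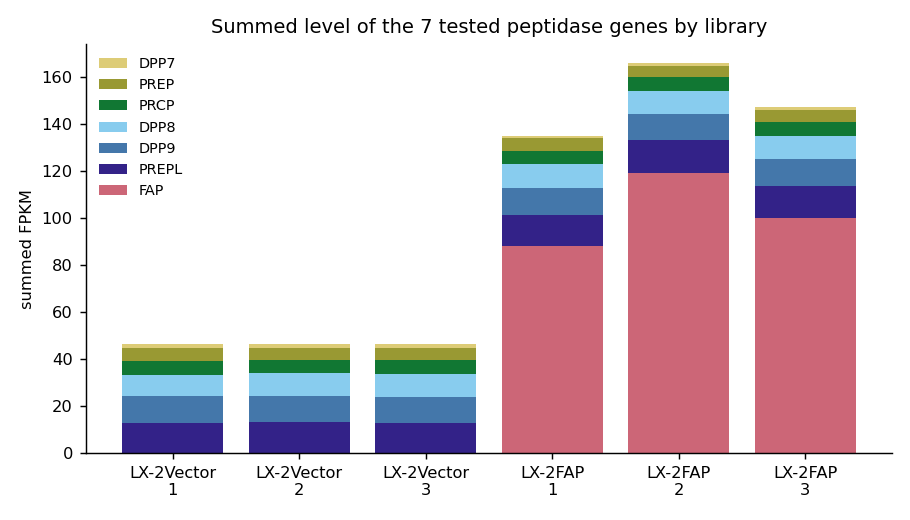
Stacked bars of FPKM for the 7 tested genes in each of the 6 libraries, from a baseline of 0, with a color per gene and no error bars because each bar is 1 library. The part above FAP has nearly the same height in all libraries, 46.1 to 47.3 FPKM over the 9 members other than FAP, and FAP is visible only in LX-2FAP.

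Summed over the 9 members other than FAP, the level was 46.2, 46.1 and 46.1 FPKM in LX-2Vector and 47.1, 46.6 and 47.3 FPKM in LX-2FAP. The groups did not overlap, but the difference was small, 0.895 FPKM or 1.94%. An exact 2-sided permutation test gave p = 0.1, the smallest that 3 against 3 libraries can give. Summed CPM of the same genes, which carries the TMM factors and no gene length, had a mean of 479.1 ± 1.84 in LX-2Vector and 499.5 ± 4.35 in LX-2FAP (SD, n = 3 each), a difference of 4.26% with the same exact p = 0.1.

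Of the 10 genes, 7 had enough counts to be tested and 1, FAP, was called at an adjusted p under 0.05, against 5.29% of all tested genes (2.57% higher and 2.73% lower). Since FAP is the gene introduced, the other 6 carry the question of whether the related peptidases differ between the groups. edgeR called none of the 6, with 2 at an unadjusted p under 0.05 (PREPL and DPP7) against 22.2% of all genes. DESeq2 also called none, but it gave no adjusted p for DPP7, which it therefore could not call. With DESeq2, 1 of the 6 had an unadjusted p under 0.05, beside 2930 of all 18275 tested genes, of which 1021 were called. Of the 6, 4 had a positive and 2 a negative log2 fold change, with a median of 0.06, beside -0.01 over all tested genes. For 5 of the 6 (all but DPP7), the 95% interval of the change lay within 1.2-fold in either direction. CPM of 3 of the 6 did not overlap between groups, against 26.4% of all genes.

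**Figure D3:**
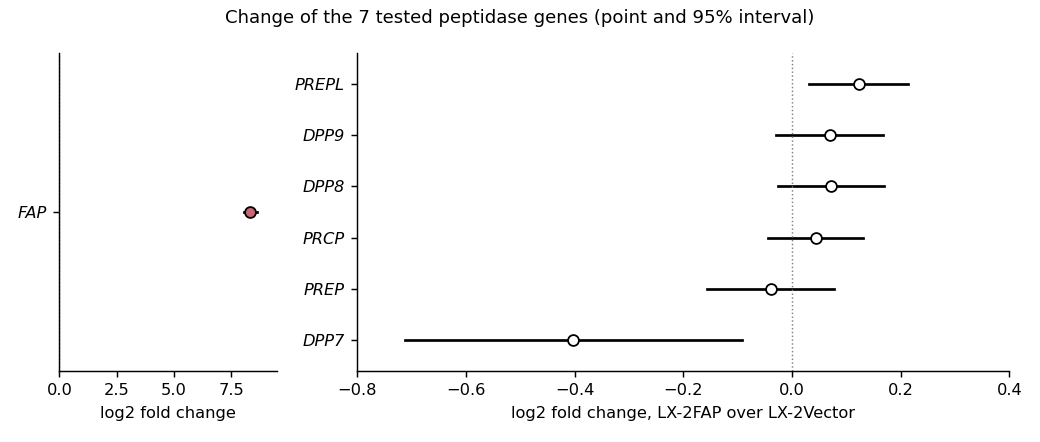
Log2 fold change of LX-2FAP over LX-2Vector with its 95% interval for the 7 tested genes, FAP on a scale of its own at the left. FAP lies at 8.33, the intervals of DPP8, DPP9, PRCP and PREP include 0, and those of PREPL (0.03 to 0.21) and DPP7 (-0.71 to -0.09) do not, although neither was called after adjustment.

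Among the cytosolic dipeptidyl peptidases, DPP8 had 91.3, 98.6 and 99.25 CPM in LX-2Vector and 102.4, 102.0 and 99.29 CPM in LX-2FAP. All LX-2FAP values were higher, the nearest pair by far less than the spread between libraries, and by FPKM (8.96 to 9.81 against 9.60 to 9.93) the groups overlapped. The log2 fold change was 0.07 (SE 0.05, 95% interval -0.03 to 0.17, adjusted p = 0.385). DPP9, the closest relative of DPP8, had 96.2, 88.3 and 88.9 CPM in LX-2Vector and 96.7, 93.9 and 96.4 CPM in LX-2FAP, with overlap between the groups. Its log2 fold change was also 0.07 (SE 0.05, -0.03 to 0.17, adjusted p = 0.417). The ratio of DPP9 to DPP8 in FPKM was 1.17 ± 0.11 in LX-2Vector and 1.16 ± 0.031 in LX-2FAP (SD, n = 3 each; exact permutation p = 1.0), so the balance of this pair differed by less than the spread between libraries. DPP9 shares 18.4% of its exon bases with DPP9-AS1 on the opposite strand, whose reads may be in its counts.

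Among the oligopeptidases, PREP had 48.5, 44.6 and 48.1 CPM in LX-2Vector and 46.5, 43.9 and 47.2 CPM in LX-2FAP. The ranges overlapped nearly in full, with a log2 fold change of -0.04 (SE 0.05, -0.16 to 0.08, adjusted p = 0.733). PREPL, which resembles PREP but is not known as a classical prolyl peptidase, had 102.1, 106.6 and 103.2 CPM in LX-2Vector and 110.3, 115.6 and 113.5 CPM in LX-2FAP. Its groups did not overlap, by 1.09-fold on average, and the log2 fold change of 0.12 (SE 0.04, 0.03 to 0.21) had an unadjusted p = 0.0111 and an adjusted p = 0.101. This gene shares the largest part of its exons with opposite-strand genes among the 10, 23.6%, with SLC3A1 and AC013717.1.

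Of the vesicular peptidases, PRCP, the lysosomal prolylcarboxypeptidase that trims angiotensin and melanocortin peptides, had 138.2, 134.9 and 134.8 CPM in LX-2Vector and 138.1, 137.9 and 144.6 CPM in LX-2FAP. The groups overlapped and the log2 fold change was 0.04 (SE 0.04, -0.04 to 0.13, adjusted p = 0.587). DPP7, which belongs to the same peptidase family as PRCP, had 4.66, 3.87 and 3.996 CPM in LX-2Vector and 3.46, 2.67 and 3.34 CPM in LX-2FAP, from 48 to 123 counts per library. All 3 LX-2FAP libraries lay below all 3 LX-2Vector libraries. With a log2 fold change of -0.40 (SE 0.15, -0.71 to -0.09), DPP7 was 1.32-fold higher in LX-2Vector (95% interval 1.07 to 1.64), with an unadjusted p = 0.0143 and an adjusted p = 0.115. At an unadjusted p under 0.05 with a fold over 1.2, DPP7 would be counted beside FAP, as would 7.89% of all tested genes.

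The remaining surface and channel members were at the edge of detection. DPP4 had 4, 11 and 3 counts in LX-2Vector and 10, 1 and 2 in LX-2FAP, 18 against 13 in all, and no direction could be read from them. Fitted without a filter on low counts, its log2 fold change was -0.43 with an interval from -1.48 to 0.63 (edgeR adjusted p = 0.75). DPP6 had 1, 1 and 0 counts in LX-2Vector and 1, 0 and 1 in LX-2FAP. DPP10 had 0 counts in all 6 libraries, which at these depths allows a level of up to 0.114 to 0.173 CPM on each library's total, counting error only. The pair of catalytically inactive members, DPP6 and DPP10, was thus not measurable at this depth, and neither was the closest relative of FAP.

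The order of the well expressed members depended on the gene length used. The gene length implied by the deposited counts and FPKM was 23408 bases for PRCP, against 3090 in the principal transcript of GENCODE 29, a ratio of 7.58. The same ratio was 3.07 for PREP, 2.51 for FAP and 1.17 for DPP8. Per kilobase of principal transcript, a scale added after the data were seen, PRCP led in LX-2Vector with 44.0 ± 0.62 CPM per kilobase (SD, n = 3), ahead of DPP9 with 21.2 ± 1.02, PREPL with 19.9 ± 0.45, PREP with 16.2 ± 0.74 and DPP8 with 11.1 ± 0.51. The libraries' ranges of DPP9 (20.6 to 22.4) and PREPL (19.6 to 20.5) came close without overlapping. DPP7 was at 2.63 ± 0.26 and FAP at 0.819 ± 0.14 CPM per kilobase, so FAP was 7th on both scales, and it was 1st in LX-2FAP with 260.2 ± 40.4 CPM per kilobase.

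**Figure D4:**
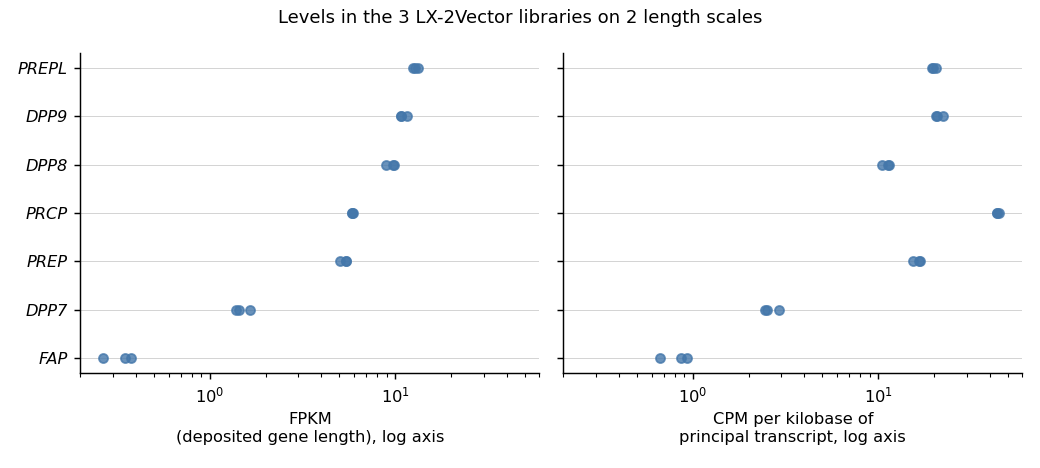
Levels of the 7 tested genes in the 3 LX-2Vector libraries on log axes, with a point per library, as FPKM on the deposited gene length at the left and as CPM per kilobase of the principal transcript at the right. PRCP moves from below DPP8 at the left to the top at the right, while DPP7 and FAP stay at the bottom on both.

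Genes linked to these peptidases were followed as 10 lists with 68 genes in all, of which 43 were tested, 2 were called higher and 5 lower. That is 16.3% of those tested, beside 5.29% of all tested genes, with a median log2 fold change of -0.08 against -0.01. The lists were chosen with earlier results of these data known, so these shares are a description and not a test of the lists. The calls were made up of collagen and matrix genes, a chemokine and a cathepsin. This count moved with single libraries: 4 genes were called without LX-2Vector library 1, 11 without LX-2FAP library 1, 4 without LX-2FAP library 2 and 2 without LX-2FAP library 3. Over all tested genes, the calls moved likewise from 967 to 391, 1949, 129 and 26. limma on log2(FPKM + 1) called 0 of the 43, with 12 at an unadjusted p under 0.05, and only 2 of all tested genes.

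Of the 9 genes whose products FAP is reported to cut, 3 were tested and 2 were called lower in LX-2FAP. COL3A1, the chain of type III collagen, was at 5.87, 5.66 and 7.12 FPKM in LX-2Vector and at 4.63, 2.91 and 3.67 FPKM in LX-2FAP, a log2 fold change of -0.69 (SE 0.12, adjusted p = 0.00765). COL1A1, a chain of type I collagen, was at 35.1, 30.9 and 36.8 FPKM in LX-2Vector and at 29.1, 21.8 and 25.5 FPKM in LX-2FAP, with -0.40 (SE 0.08, adjusted p = 0.0135). For both collagens every LX-2FAP library lay below every LX-2Vector library. COL1A2, the partner chain of COL1A1, was only at 0.0566 to 0.132 FPKM in the 6 libraries. Without LX-2FAP library 3 the adjusted p of COL3A1 was 0.0693, and that of COL1A1 was 0.0864; COL1A1 was also not called without LX-2Vector library 1 (0.0543) or LX-2FAP library 2 (0.0555), nor in DESeq2 (0.0513). The other substrate genes, SERPINF2, FGF21, NPY, PYY, NPPB and TAC1, were too low to test.

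The matrix enzymes that act beside FAP moved in both directions. Of 6 genes, 5 were tested, 1 was called higher and 2 lower, with a median log2 fold change of -0.10. MMP1, the interstitial collagenase, was the most abundant of them and rose from 213.7, 244.7 and 230.3 FPKM to 296.3, 342.2 and 360.3 FPKM (log2 fold change 0.57, SE 0.06, adjusted p = 0.000401). MMP2, the gelatinase A, fell from 5.62, 5.83 and 6.82 FPKM to 4.07, 3.02 and 3.38 FPKM (-0.76, SE 0.10, adjusted p = 0.00185). MRC2, the endocytic collagen receptor, fell from 13.8, 12.8 and 14.6 FPKM to 12.3, 10.0 and 11.2 FPKM (-0.27, SE 0.07, adjusted p = 0.0306). The groups did not overlap for any of the 3. MMP1 and MMP2 were called with any 1 library left out, whereas MRC2 was not called without LX-2Vector library 1 (adjusted p = 0.0845), LX-2Vector library 3 (0.102), LX-2FAP library 2 (0.142) or LX-2FAP library 3 (0.1505).

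Among 13 genes for peptides that DPP4 cuts, 4 were tested and 1 was called lower. CXCL12, the chemokine that DPP4 inactivates, was at 24.9, 26.4 and 33.8 FPKM in LX-2Vector and at 22.1, 14.999 and 17.8 FPKM in LX-2FAP (log2 fold change -0.60, SE 0.11, adjusted p = 0.0104, 0.0748 without LX-2FAP library 3 and 0.0533 in DESeq2). The groups did not overlap, and the list had a median of -0.13. CSF2, which encodes the growth factor GM-CSF, had a change of the other sign, with 2.74, 3.73 and 3.79 FPKM in LX-2Vector and 4.14, 4.59 and 4.42 FPKM in LX-2FAP without overlap, but was not called (log2 fold change 0.40, SE 0.16, unadjusted p = 0.0225, adjusted p = 0.147). GCG, which encodes glucagon and lies between DPP4 and FAP on chromosome 2, had 0 counts in every library.

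**Figure D5:**
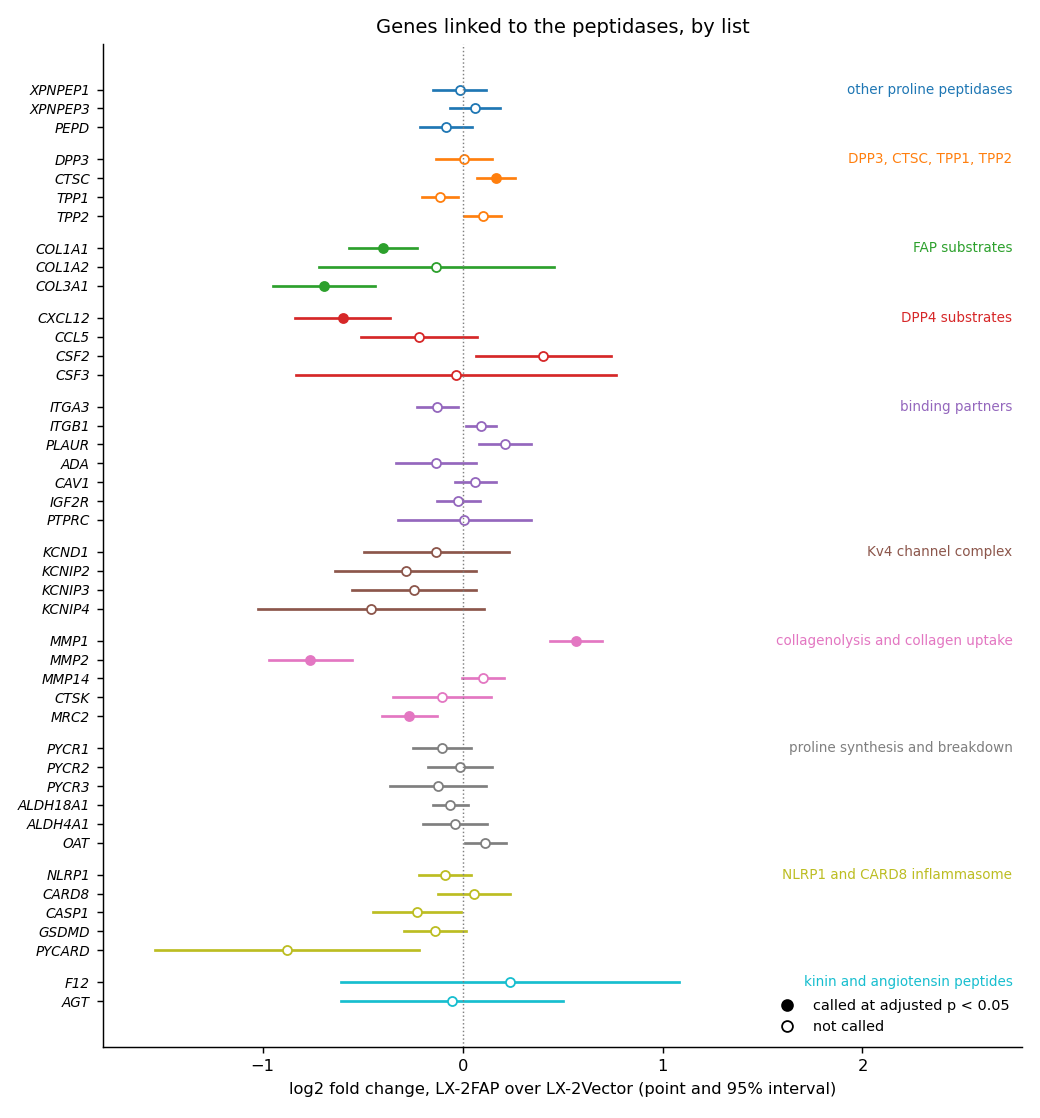
Log2 fold change of LX-2FAP over LX-2Vector with its 95% interval for the 43 tested genes of the 10 lists, a color per list, filled where the gene was called. MMP1 and CTSC are the filled points to the right of 0, and COL1A1, COL3A1, CXCL12, MMP2 and MRC2 those to the left.

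Dipeptidyl and tripeptidyl peptidases of other families were all 4 tested and 1 was called higher. CTSC, the lysosomal cathepsin C or dipeptidyl peptidase I, was at 2.98, 3.03 and 3.02 FPKM in LX-2Vector and at 3.32, 3.21 and 3.405 FPKM in LX-2FAP (log2 fold change 0.17, SE 0.04, adjusted p = 0.0426). The difference was small and was called in only 1 of the 6 fits that left out a library, without LX-2FAP library 1; the adjusted p in the others was 0.0833, 0.0783 and 0.0882 without LX-2Vector libraries 1 to 3, and 0.0944 and 0.253 without LX-2FAP libraries 2 and 3. The highest of this list was TPP1, the lysosomal tripeptidyl peptidase, with a log2 fold change of -0.11 (adjusted p = 0.119).

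edgeR called no gene in the other 6 lists; counts at an unadjusted p under 0.05 stand beside 22.2% of all tested genes. Of the 4 other proline peptidases 3 were tested, none with an unadjusted p under 0.05, and PEPD, the dipeptidase that frees proline, was the highest, with a log2 fold change of -0.08 (adjusted p = 0.471). All 7 binding partners of FAP or DPP4 were tested and 3 had an unadjusted p under 0.05. In that list DESeq2 called 1, PLAUR, the urokinase receptor, which in edgeR had a log2 fold change of 0.21 (adjusted p = 0.057). PLAUR was called in 4 of 14 alternatives, edgeR fits among them, while CAV1, the main protein of caveolae and the highest of the list, had 0.06 (adjusted p = 0.467). The 4 tested of 7 Kv4 channel genes had no unadjusted p under 0.05 and a median of -0.26, with KCNIP2 the highest at 0.596 to 0.950 FPKM. Of the 8 proline metabolism genes 6 were tested and 1 had an unadjusted p under 0.05, OAT, the ornithine aminotransferase, which was also the highest (0.11, adjusted p = 0.172). All 5 genes of the inflammasomes held by DPP8 and DPP9 were tested, 2 with an unadjusted p under 0.05 and a median of -0.14. GSDMD, the pore-forming gasdermin, was the most abundant of them (-0.14, adjusted p = 0.288). Log2 fold changes in this list ran from -0.88 to 0.06, and the lowest edgeR adjusted p was 0.106. Without LX-2FAP library 1, edgeR called 1 of the 5, beside 1949 of all 18794 genes tested in that fit. The 2 tested of 5 kinin and angiotensin genes had no unadjusted p under 0.05, with F12, coagulation factor XII, the higher at 0.103 to 0.259 FPKM. DESeq2 called no gene in these lists other than PLAUR.

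The genes around FAP on chromosome 2 were compared in the same fit. Of 9 protein-coding genes within 1 Mb of FAP, 4 were tested and 2 were called, 1 in each direction, beside 5.29% of all tested genes. IFIH1, the sensor of viral double-stranded RNA, 21.9 kb from FAP, fell from 3.55, 3.69 and 3.46 FPKM to 3.07, 2.44 and 2.65 FPKM (log2 fold change -0.35, SE 0.09, adjusted p = 0.0314). PSMD14, a proteasome lid subunit 759.0 kb away, rose from 15.7, 16.3 and 14.5 FPKM to 16.6, 18.3 and 18.4 FPKM (0.22, SE 0.05, adjusted p = 0.0283). TANK had a log2 fold change of 0.09 (adjusted p = 0.429) and GCA of -0.15 (adjusted p = 0.494), and DPP4, GCG, TBR1, SLC4A10 and KCNH7 were too low to test. Of 14 alternatives with a filter on low counts, 7 called IFIH1 (adjusted p up to 0.166) and 8 called PSMD14 (up to 0.176). The change was 1.27-fold for IFIH1 and 1.17-fold for PSMD14, beside 321.6-fold for FAP.

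Genes whose level followed FAP most closely were sought among the 11550 tested genes averaging 100 or more counts per library, by Pearson's r of log2 CPM over the 6 libraries. As FAP forms a low and a high group, r mainly follows the difference between groups and is given as a description. The highest were TPX2, a spindle assembly factor (r = 0.998), PPP1CC, a catalytic subunit of protein phosphatase 1 (0.997), and USP15, a deubiquitinase (0.996). The most opposed were EVL, an actin regulator (-0.997), RAB5B, a small GTPase of early endosomes (-0.994), and MARK3, a kinase of microtubule-associated proteins (-0.992). Their changes were small beside that of FAP: log2 fold changes were 0.10, 0.11 and 0.18 for the first 3 and -0.28, -0.11 and -0.10 for the others, and of the 6 genes USP15 (adjusted p = 0.0339) and EVL (0.0418) were called. Most alternatives ended these calls: of 14, 6 called USP15 (adjusted p up to 0.249) and 5 called EVL (up to 0.188).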

How the data were processed

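RNA of 6 LX-2 libraries was sequenced, after ribosomal RNA depletion per the labels; poly(A) selection is named in the methods of the study as well. The authors deposited whole-number read counts per gene and FPKM; the submitters' processing notes name HISAT2 2.0.5, featureCounts 1.5.0-p3, edgeR, DESeq2 1.16.1 and the build hg18. The length implied by the deposited counts and FPKM equaled the merged exons of GENCODE 29 (GRCh38) for 60.7% of genes, so positions given here are those of GENCODE 29 by gene identifier. Among the members it was equal for DPP8 and close for FAP (6968 against 7003 bases), DPP9 (8303 against 8324) and PREPL (8156 against 8153). It was far longer for PRCP (23408 against 12798), DPP4 (14432 against 5009) and PREP (8917 against 3762). Shares of exon bases are those of GENCODE 29 and may differ from the features counted. The table's own build could not be settled and no coordinate of the table was used.

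Counts were fitted with edgeR 4.0.16 (quasi-likelihood F-test, TMM, filterByExpr with a minimum count of 10) in R 4.3.3, LX-2FAP against LX-2Vector, with Benjamini-Hochberg adjustment over 18275 genes. Genes were called at an adjusted p under 0.05, and log2 fold changes carry SE and 95% interval from the same fit. The fit was tested on simulated data. DESeq2 1.42.0, limma 3.58.1 on log2(FPKM + 1) and log2(FPKM + 0.1), other normalizations and filters, a replicate block and leaving out each library were alternatives. Sums and ratios were compared with exact 2-sided permutation tests over 20 splits.

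The members and lists were chosen with earlier results of these data known. Named genes are the 10 members, the called genes and the highest gene of each list, protein-coding neighbors of FAP within 1 Mb, and the 3 genes most like and most opposed to FAP. PDGFRB, VIM and VWF were named as called markers, and PLAUR and CSF2 after their values were seen. Catalytic codons were placed by global alignment of translated transcripts to FAP. The shares of identical bases come from the codons aligned in this way. No protein sequences from a reference were used here.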

Additional observations from a re-analysis of the deposited data

How the results depend on the processing

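FAP was called under all 15 alternatives, with a log2 fold change from 6.27 with limma on log2(FPKM + 1) to 8.45, and none of the other 6 tested members was called under any that gave an adjusted p; DESeq2 gave none for DPP7. Counting by an unadjusted p under 0.05 and a fold over 1.2 gave 2 members, FAP and DPP7. Of the values of single genes under alternatives that gave an adjusted p, 177 kept their side of the threshold, 32 lost it and 0 changed sign. All 32 losses fell on the 7 list genes called in the main fit. The values kept include those of FAP, called throughout, and of the 6 members that had no call to lose. Of the 43 tested list genes, 7 were called, against 0 with limma under either pseudocount (12 and 13 at an unadjusted p under 0.05, and 2 calls over all genes), and 6 with DESeq2. With 1 library left out, 2 to 11 were called. In DESeq2, COL1A1 (adjusted p = 0.0513) and CXCL12 (0.0533) were not called. The summed level of the members other than FAP differed by 1.94% in FPKM and 4.26% in CPM. Ranked by CPM, 7 of the 10 members kept their rank by FPKM, and 6 did by CPM per kilobase of principal transcript, a scale added after the data were seen. Replicate numbers did not pair the samples: deviations of same-numbered libraries correlated at -0.04, 0.04 and -0.01. With the replicate block, FAP had 8.30, list calls numbered 6 (CTSC was lost, adjusted p = 0.0505) and 975 genes were called in place of 967. Depth limited DPP4, DPP6 and DPP10, which were not tested, and DPP7, which had 48 to 123 counts. With 3 libraries a group, the exact test of a sum has a smallest p of 0.1.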
